A study of Rattus norvegicus with 72 samples.

Results

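Collagens, laminins and the matrix proteins fibronectin, periostin, Sparc, biglycan, decorin, lumican and tenascin-C were followed in rat dorsal root ganglia during the first 28 h after a crush of the sciatic nerve. The genes were chosen by symbol: every collagen chain (Col followed by a type and a chain number), every laminin chain (Lama, Lamb or Lamc with a number), and Fn1, Postn, Sparc, Bgn, Dcn, Lum and Tnc. Of 58 such genes with a named probe set, 54 passed the filter on dim probe sets, among 12276 genes that did so in all. The 4 that did not were Lamb3, Col4a4, Col13a1 and Col17a1, with means over all 72 arrays between 4.37 and 5.33 log2 against a filter level of 5.46. The dimmest that passed were Col20a1 (5.61) and Lama1 (5.66). The 54 were 11 fibrillar collagens, 9 fibril-associated collagens, 5 collagen VI chains, 6 basement membrane collagens, 7 other collagens, 9 laminins and 7 glycoproteins and proteoglycans. No measured value entered the rule, other than brightness, though the members were chosen with earlier results of these data known.

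A dorsal root ganglion holds the cell bodies of sensory neurons, each wrapped by satellite glia, with Schwann cells around the axons, blood vessels, and a connective tissue capsule. Fibrillar collagens form the load-bearing fibres of that connective tissue, and fibril-associated collagens and small proteoglycans such as decorin and lumican decorate the fibres and set their width. Collagen IV and laminins build the sheet-like basement membranes around Schwann cells and vessels, to which cells attach through integrins. Fibronectin, periostin and tenascin-C are matrix proteins known for their rise in wounds.

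The animals were Wistar rats aged 8 to 12 weeks, and RNA came from their lumbar L4 and L5 ganglia. The 3 groups were sham, a crush labelled proximal and a crush labelled distal, each sampled at 8 times from 1 to 28 h. Sham had 21 arrays (3 per hour, but 2 at 12 h and 1 at 16 h), proximal 22 (3 per hour, but 2 at 12 and 16 h) and distal 29 (4, 3, 5, 3, 2, 6, 3 and 3 in order of time). Hours were joined into an early window (1, 3 and 8 h), a middle window (12 and 16 h) and a late window (18, 24 and 28 h). No label ties an array to an animal of its own, so the p-values speak of spread among arrays, which may be technical. In RNA from a whole ganglion, fewer cells of a type and less RNA per cell cannot be told apart.

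Values are log2 intensities, so a difference of 1 is a doubling, and levels of different probe sets cannot be set against each other. Array medians ran from 6.88 to 7.08, but the spread differed between technical sets, as given next. By the values of probe sets under the filter level, arrays fell into 4 technical sets, defined from the data. Of the 29 distal arrays 27 formed set A, with 1 of the others in B and 1 in C. Sham and proximal arrays were spread over B (4 and 4), C (8 and 9) and D (9 and 9, which are those of 1, 24 and 28 h). The interquartile range of an array was 3.51 to 3.73 in set A, 3.60 to 3.77 in B, 2.73 to 3.14 in C and 3.12 to 3.39 in D. All 8 h and 3 h sham and proximal arrays lay in set C. Proximal and sham arrays were thus in the same sets at every hour, except for 1 of the 2 proximal arrays of 16 h, while distal and sham arrays shared sets through 2 distal arrays only. The 11 tested sensory neuron markers had a mean level between 12.12 and 12.69 in every array of the early and late windows.

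RefSeq promoter windows (build GRCr8, 250 bases before the start to 50 after) were found for 41 of the 54 genes, and 13 had none in the table used (Dcn, Col3a1, Col1a1, Fn1, Lamb2, Col14a1, Bgn, Col9a3, Col6a2, Col2a1, Col12a1, Col25a1 and Col22a1). The windows shown are those of genes the results turn on. Col4a1 and Col4a2, the collagen IV chains that assemble into 1 trimer, start head to head on chromosome 16 with 76 bases between their start sites (chr16:84885521-84885596). Capitals mark a GC box, read on the other strand.
Col4a1 and Col4a2, between the start sites, on the strand of Col4a1: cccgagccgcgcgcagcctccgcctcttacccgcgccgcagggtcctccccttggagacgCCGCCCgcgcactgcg
The 250 bases before the start are given for Postn (chr2:140677811-140678060, plus strand), Col16a1 (chr5:147672846-147673095, plus strand) and Col6a6 (chr8:115352162-115352411, minus strand), since these are 3 of the 4 genes that were higher late after the proximal lesion than after sham. Capitals mark matches to any of 4 motifs searched on both strands.
Postn: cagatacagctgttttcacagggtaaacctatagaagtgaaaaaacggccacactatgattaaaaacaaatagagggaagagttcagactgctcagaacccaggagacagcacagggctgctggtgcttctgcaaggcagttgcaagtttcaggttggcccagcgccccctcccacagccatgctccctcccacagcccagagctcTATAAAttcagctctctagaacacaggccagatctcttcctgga
Col16a1: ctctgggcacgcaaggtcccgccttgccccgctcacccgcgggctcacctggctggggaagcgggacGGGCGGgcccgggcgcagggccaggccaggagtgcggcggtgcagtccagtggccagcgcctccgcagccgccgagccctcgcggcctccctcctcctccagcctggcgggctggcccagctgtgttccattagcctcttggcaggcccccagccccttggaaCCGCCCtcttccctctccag
Col6a6: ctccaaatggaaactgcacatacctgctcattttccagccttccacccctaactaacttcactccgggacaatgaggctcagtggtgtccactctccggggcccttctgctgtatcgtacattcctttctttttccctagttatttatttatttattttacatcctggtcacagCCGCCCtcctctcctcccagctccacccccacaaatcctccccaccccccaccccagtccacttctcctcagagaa
The motifs were the AP-1 site TGANTCA, the cyclic AMP response element TGACGTCA, the GC box GGGCGG and the TATA box TATAAA, looked for in the 250 bases before the start. Postn held a TATA box close to its start and Col16a1 and Col6a6 held GC boxes, so the 3 windows had no motif of the 4 in common. Over the 41 genes a GC box was found in 24 (58.5%), against 30.5% of all 33469 windows, and a TATA box in 5 (12.2%, against 12.9%). An AP-1 site was found in 2, Lama3 and Col6a1 (4.9%, against 6.34%), and a cyclic AMP response element in 1, Col24a1 (2.4%, against 1.59%). The stretch between Col4a1 and Col4a2 was 78.9% G and C, the Col16a1 window 74.8%, the Col6a6 window 51.6% and the Postn window 50.8%. The 41 genes were counted by 1 window each, while a gene can have several of the 33469, so the shares are not on the same unit. All motif results are letter matches and no measure of binding.

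Of the 54 matrix genes 4 were higher 18 to 28 h after the proximal lesion than after sham, and no member was lower. They were Col16a1, a collagen that sits on fibril surfaces, Fn1, the scaffold glycoprotein fibronectin, Postn, a matricellular protein that binds collagen I and fibronectin, and Col6a6, a chain of the beaded filaments of collagen VI. The main fibril collagens were not among them: Col1a1, Col1a2 and Col3a1 differed by -0.05, -0.03 and 0.01 log2. Calls were made by limma at an adjusted p under 0.05 over all 12276 genes. The 4 of 54 members called higher (7.41%) compare with 5.35% of all genes called higher, and the 0 called lower with 4.36%. An unadjusted limma p under 0.05 was found in 9 of 54 members, the called ones included, and in 2485 of 12276 genes. The share called higher was thus close to the background. The median difference of the 54 members was 0.04, against -0.02 over all genes.

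Col16a1 lay between 9.25 and 10.16 (median 9.84) in the 9 late sham arrays and between 9.77 and 10.68 (median 10.27) in the 9 late proximal arrays. The groups overlapped, with 6 of 9 proximal arrays above every sham array. The difference was 0.52 (SE 0.11, 1.44-fold, limma adjusted p = 0.000313). By hour the proximal and sham means were 10.28 and 9.82 at 18 h, 10.30 and 9.95 at 24 h, and 10.23 and 9.47 at 28 h. At 28 h the groups lay apart, with proximal arrays at 10.12 to 10.35 and sham arrays at 9.37 to 9.65 (0.76, adjusted p = 0.0061), and this was the only matrix gene called at that hour. Within the technical sets the difference was 0.43 in set B and 0.52 in set C at 18 h, and 0.35 and 0.76 in set D at 24 and 28 h. Without the 28 h arrays the late difference fell to 0.41 (adjusted p = 0.0869), and the 28 h call was lost without proximal array c (adjusted p = 0.0638).

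Fn1 ran from 9.67 to 10.53 (median 10.16) in late sham arrays and from 9.90 to 10.87 (median 10.52) in late proximal arrays, with 4 of 9 proximal arrays above every sham array. The difference was 0.41 (SE 0.10, 1.33-fold, limma adjusted p = 0.00325). It was nearly the same at each hour in the plot by hour: the means were 10.71 and 10.34 at 18 h, 10.46 and 10.03 at 24 h, and 10.34 and 9.90 at 28 h. Sham itself was lower late, going from 10.40 ± 0.12 (SD, n = 9) early to 10.09 ± 0.27 (SD, n = 9) late, while proximal arrays were at 10.39 ± 0.15 early and 10.50 ± 0.32 late (SD, n = 9 each). The change over time was -0.31 (SE 0.10, adjusted p = 0.0119) in sham and 0.12 (SE 0.10, adjusted p = 0.389) in proximal arrays, and within set D -0.47 and -0.08, so Fn1 had no called rise in proximal arrays. Against all 21 sham arrays pooled the late difference was 0.24 (adjusted p = 0.0689), so this call rests on the sham arrays of the same hours.

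Postn lay between 5.85 and 7.04 (median 6.37) in late sham arrays and between 6.41 and 7.74 (median 6.85) in late proximal arrays. Of 9 proximal arrays 4 lay above every sham array, and 5 sham arrays lay below every proximal array. The difference was 0.57 (SE 0.16, 1.48-fold, limma adjusted p = 0.0105). The 2 highest arrays, at 7.58 and 7.74, were proximal 18 h arrays of set B. Within set D the difference was 0.42 at 24 h and 0.60 at 28 h. Without the 28 h arrays it was 0.55 and no longer called (adjusted p = 0.144).

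Col6a6 ran from 6.10 to 7.76 (median 6.97) in late sham arrays and from 6.58 to 8.51 (median 7.47) in late proximal arrays, with 3 of 9 proximal arrays above every sham array. The difference was 0.56 (SE 0.15, 1.47-fold, limma adjusted p = 0.0101). It was largest at 18 h, where proximal arrays were at 7.72, 8.21 and 8.51 and sham arrays at 6.10, 7.13 and 7.76 (1.15, adjusted p = 0.00836). That 18 h call was lost without proximal array a or b, without sham array c, and with only those 6 arrays fitted. At 24 and 28 h, all in set D, the difference was 0.30 and 0.23. Without the 18 h arrays it was 0.27 (adjusted p = 0.309), and without sham 18 h array c, the one at 6.10, it was 0.41 (adjusted p = 0.0567), so the call rests on 18 h and on that array. When only the 18 arrays compared were fitted, Col6a6 was not called (adjusted p = 0.0797) and the other 3 genes were (adjusted p = 0.0276 to 0.0431). With set D alone Col16a1 (0.55) and Postn (0.51) were called, and Fn1 (0.43, adjusted p = 0.0536) and Col6a6 (0.27) were not. Without proximal 18 h array c, 9 members were called in place of 4, and the share of all genes was not counted there.

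**Figure D1:**
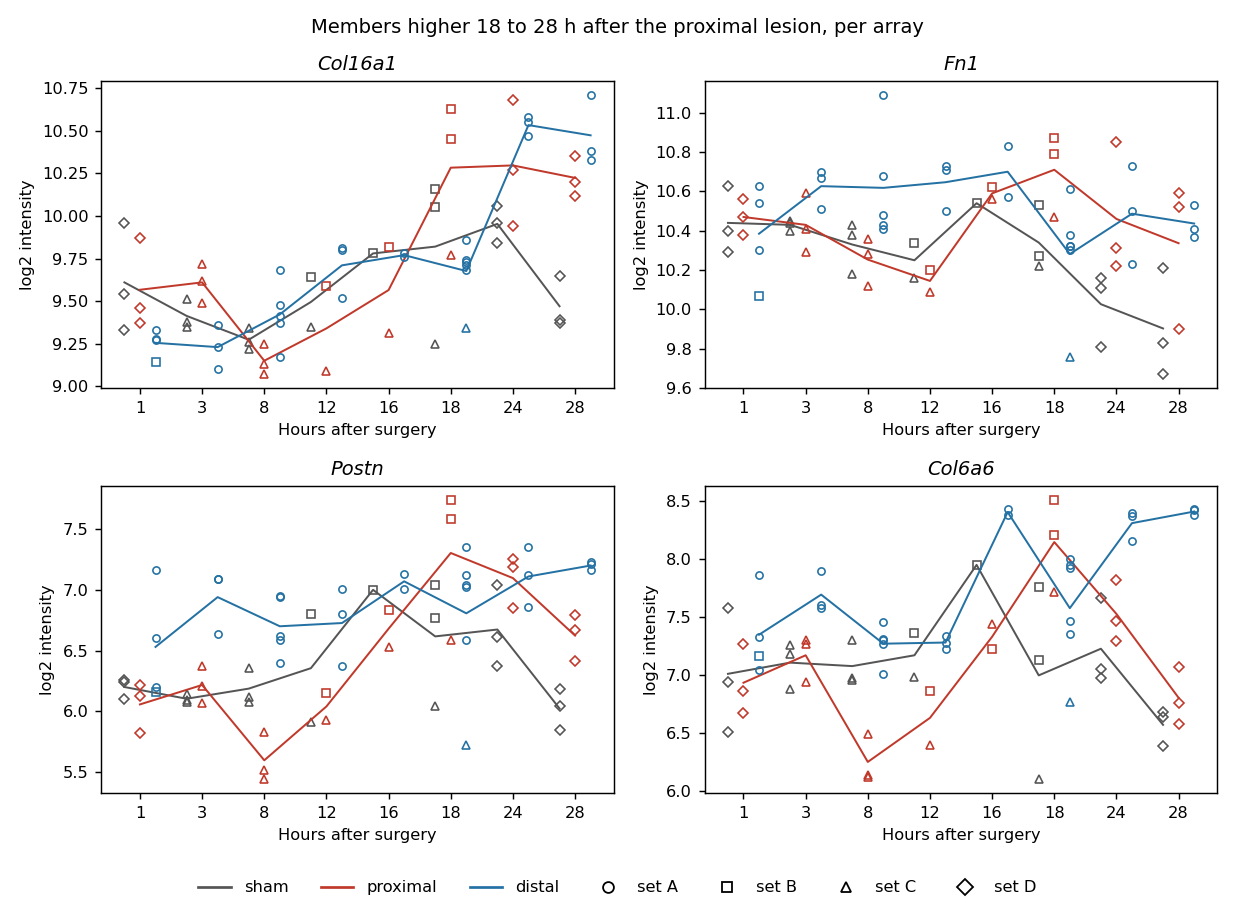
Log2 intensity of Col16a1, Fn1, Postn and Col6a6 in each of the 72 arrays by hour after surgery, with points shifted sideways by lesion, marker shapes for technical sets A to D, and lines through the group means. Proximal means lay above sham means at 18, 24 and 28 h in all 4 panels, while proximal Postn and Col6a6 lay below sham at 8 h.

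The other members were not called in this late comparison, though the count depends on the model. With technical set as a fixed block 9 members were called, all higher, and with array weights 15, of which 13 were higher and 2 lower. The shares of all genes called under these models were not counted, so whether the rise is particular to matrix genes is not known. Of the 11 fibrillar collagens 0 were called and differences ran from -0.09 (Col5a1) to 0.26 (Col5a2, SE 0.12, adjusted p = 0.198). Col1a1 had a median of 11.14 (10.63 to 12.08) in sham and 11.02 (10.60 to 12.04) in proximal arrays, which overlapped almost fully. Its 95% interval was -0.34 to 0.25, that of Col1a2 -0.27 to 0.22 and that of Col3a1 -0.20 to 0.21. A dimmer probe set of Col1a1 gave 0.04. Of the 6 basement membrane collagens 0 were called, with Col4a1 at 0.02 (SE 0.09), Col4a2 at -0.03 (SE 0.12) and Col18a1, the precursor of endostatin, at 0.29 (SE 0.11, adjusted p = 0.0874).

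Laminins spanned the narrowest range of the 7 classes, with 0 of 9 called and differences from -0.08 to 0.16. Lama2, the alpha chain of the Schwann cell and muscle basement membrane, was at 0.16 (SE 0.13), Lama4, a chain of vessel and nerve laminins, at 0.14 (SE 0.17), Lamb1 at 0.07 (SE 0.13), Lamb2 at 0.05 (SE 0.13) and Lamc1, the gamma chain of most laminins, at 0.12 (SE 0.10). Collagen VI chains other than Col6a6 were at 0.15 (Col6a1, SE 0.12), 0.21 (Col6a2), 0.28 (Col6a3, adjusted p = 0.126) and -0.03 (Col6a5). Among the glycoproteins and proteoglycans, Dcn was at 0.24 (SE 0.09, adjusted p = 0.103), Lum at 0.20 (SE 0.10, adjusted p = 0.27), Sparc, a collagen-binding glycoprotein, at 0.02 (SE 0.06), Bgn at -0.03 (SE 0.09) and Tnc at -0.14 (SE 0.18).

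In the comparison that called Col16a1, Fn1, Postn and Col6a6, 8 of 13 macrophage markers were called higher and 0 lower, with a median of 0.52. Their mean level ran from 6.94 to 7.78 (median 7.37) in late sham arrays and from 7.43 to 8.46 (median 7.64) in late proximal arrays. Of 12 fibroblast markers outside the matrix genes 1 was called higher, Ly6c (0.70), and 0 lower, with a median of 0.11. Ly6c lay near the filter level (mean 5.78 over all arrays), and neither it nor Thy1, also on the list, is confined to fibroblasts. The mean level of the 12 ran from 8.49 to 9.09 in sham and from 8.72 to 9.24 in proximal arrays. Endothelial markers had 0 of 12 called (median 0.03, Erg below the filter), pericyte and smooth muscle markers 0 of 8 (median 0.07, Cnn1 and Kcnj8 below the filter) and Schwann cell markers 0 of 8 (median -0.01). Of the adipocyte markers 1 passed the filter and was not called, while Adipoq, Plin1, Fabp4 and Lep lay below it. Skeletal muscle markers, among them Pvalb, which is not confined to muscle, had 0 of 8 called (median -0.38). Their mean level ran from 7.36 to 11.29 over all arrays of the early and late windows. The part of any of these in the 4 differences was not tested.

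The late differences were also compared with those of the early window. In the proximal-minus-sham difference at 18 to 28 h less that at 1 to 8 h, the same 4 genes were called higher and 0 members lower, against 3.03% and 5.64% of all genes. The change was 0.84 for Col6a6 (SE 0.22, limma adjusted p = 0.0085), 0.77 for Postn (SE 0.22, adjusted p = 0.0182), 0.51 for Col16a1 (SE 0.15, adjusted p = 0.0212) and 0.43 for Fn1 (SE 0.14, adjusted p = 0.0485). The 8 h arrays weighed heavily here. Without them none of the 4 was called and the count of members was 0, and without the 28 h arrays it was 1. The Fn1 call was lost in 33 of 49 alternatives.

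In the early window itself 0 members were called in either direction (9 had an unadjusted p under 0.05), against 0.114% of all genes higher and 0.0163% lower. In the middle window 0 were called as well (9 with an unadjusted p under 0.05), against 0.057% in each direction, with 1 sham array at 16 h. By single hour, 0 members were called at 1 h (0% of all genes, 0 members with an unadjusted p under 0.05), at 3 h (0%, 3 members), at 12 h (0.0326%, 2 members), at 16 h (0.0489%, 4 members) and at 24 h (1.21%, 3 members). Calls were made at 8 h (2 members, against 1.75% of all genes), 18 h (Col6a6, against 1.51%) and 28 h (Col16a1, against 4.47%).

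At 8 h Sparc was higher and Col14a1 lower after the proximal lesion. Sparc stood at 12.62, 12.62 and 12.71 in proximal arrays and at 11.90, 12.12 and 12.42 in sham arrays, a difference of 0.50 (SE 0.11, 1.42-fold, limma adjusted p = 0.0105). The groups did not overlap. Sham Sparc was also low at 3 h (12.21 to 12.51), likewise in set C, and at 16 h (12.33), in set B. It lay at 12.58 or above at 1 h, 12 h and 18 to 28 h. Of those, the set C arrays were at 12.93 (12 h) and 12.58 (18 h). A dimmer Sparc probe set gave 0.37 (SE 0.34, unadjusted p = 0.276). The Sparc call was lost after another quantile normalization, without proximal array a, and without sham array a or c.

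Col14a1, a fibril-associated collagen, stood at 8.47, 8.57 and 8.74 in the 8 h proximal arrays and at 9.56, 9.60 and 9.64 in the sham arrays, a difference of -1.01 (SE 0.22, limma adjusted p = 0.0105). Here the proximal arrays were the low ones, and the groups lay apart. A dimmer Col14a1 probe set gave -0.04 (SE 0.22, unadjusted p = 0.843) in the same arrays, so the 2 probe sets disagreed. The call was also lost without sham array a or c. Of the matrix lists, Adam17 and Adamts9 were called lower at 8 h among 23 proteases and inhibitors, and 1 of 20 receptors was called higher and 1 lower.

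More members lay apart at 8 h than were called. In 13 of 54 genes all 3 proximal arrays were below all 3 sham arrays (5.47% of all genes tested), and in 5 all 3 were above (19% of all genes), with 1.75% of all genes called. At 18, 24 and 28 h, 0, 0 and 7 members lay below (5.46%, 7.96% and 21% of all genes). Above lay 2, 3 and 5 (4.74%, 6.8% and 11.8%). At 8 h the 13 below were Col3a1, Col5a2, Col9a1, Col14a1, Col15a1, Col19a1, Col26a1, Col6a3, Col6a6, Lamb1, Lum, Postn and Tnc, and the 5 above were Col18a1, Col4a1, Col6a2, Lamb2 and Sparc. Tnc was at 7.10 ± 0.22 in proximal and 8.15 ± 0.13 in sham arrays (SD, n = 3 each), a difference of -1.05 (SE 0.32, limma adjusted p = 0.071). Col9a1, a fibril-associated collagen best known from cartilage, differed by -1.02 (adjusted p = 0.0946) and Col6a6 by -0.83 (adjusted p = 0.0957). Postn was at 5.44, 5.52 and 5.83 in proximal and at 6.08, 6.12 and 6.36 in sham arrays (-0.59, adjusted p = 0.325). On the other side, Lamb2, the laminin beta chain of mature basement membranes, differed by 0.71 (SE 0.22, adjusted p = 0.0802), Col4a2 by 0.56 (adjusted p = 0.19) and Col4a1 by 0.37 (adjusted p = 0.291). Fibroblast markers at 8 h had 2 of 12 higher (Igfbp6 and Gsn), 0 lower and a median of 0.09. Sensory neuron markers had 2 of 11 higher (Avil and Tubb3), 0 lower and a median of 0.15. Of 6 satellite glia markers 1 was called higher and 1 lower. The median was -1.19 over 8 skeletal muscle markers and -0.10 over 13 macrophage markers, none of them called. Their part in the 8 h differences was not tested.

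**Figure D2:**
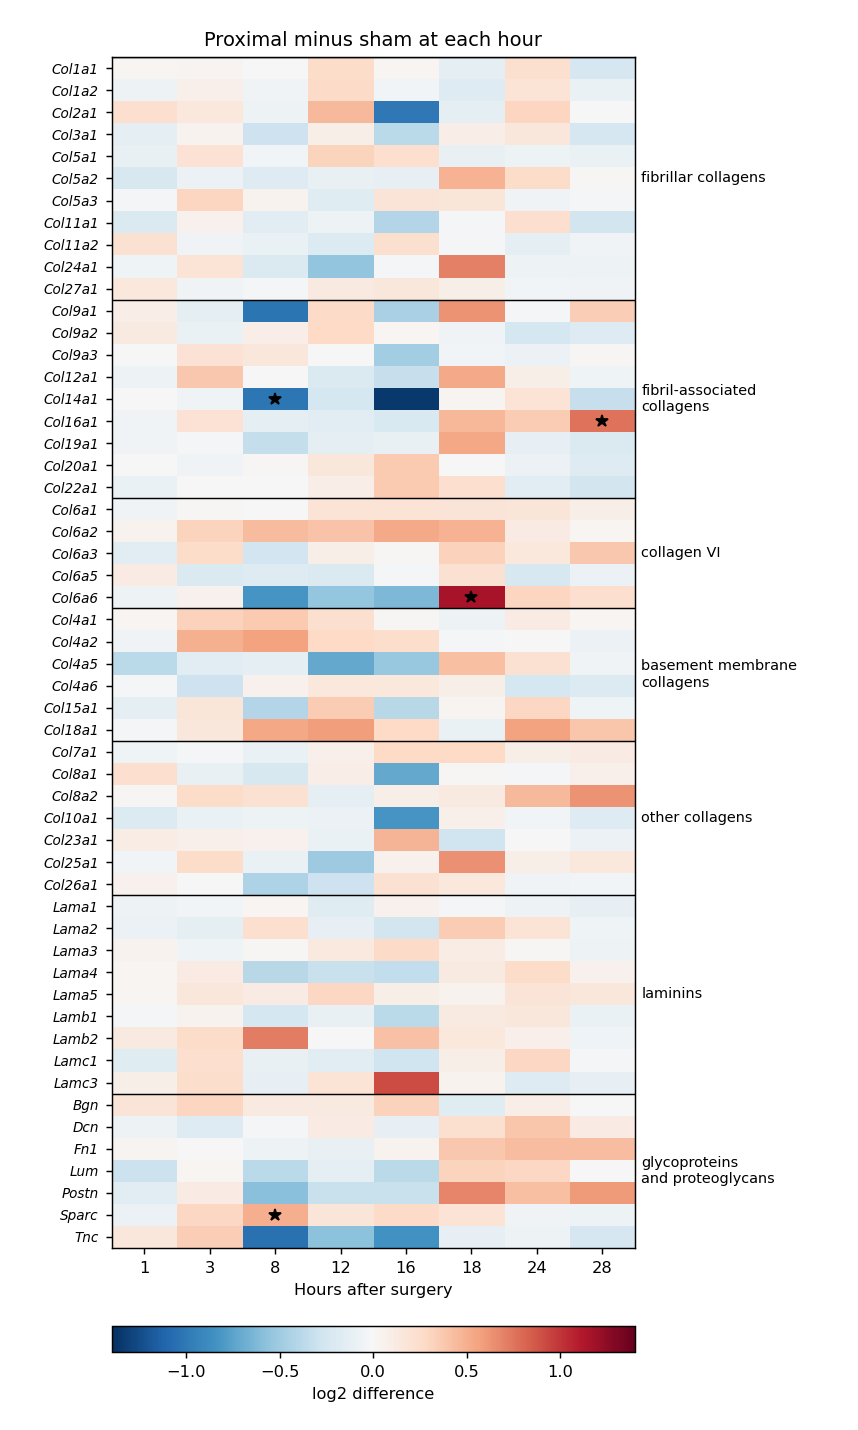
Proximal minus sham log2 difference for the 54 members (rows, grouped by class) at each of 8 hours (columns), red for higher and blue for lower after the proximal lesion, with a star for limma adjusted p under 0.05. The 4 stars are Col14a1 and Sparc at 8 h, Col6a6 at 18 h and Col16a1 at 28 h, and the 16 h column rests on 1 sham array.

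Within the distal arrays, the matrix genes moved in both directions between 1 to 8 h and 18 to 28 h. The rises were led by Col16a1, Col5a3 and Col6a6 and the falls by Col9a1, Col15a1, Lum and Dcn. Of 54 members 8 were called higher and 7 lower, against 15.4% and 9.87% of all genes, shares close to the background. The median over members was 0.10, against 0.03 over all genes. All but 1 of the 12 early and all but 1 of the 12 late distal arrays lay in technical set A, and with set A alone 15 members were again called, though Col1a2 and Lama3 were not among them. No sham array lay in set A, so these changes have no sham course beside them in that set.

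Col16a1 rose from 9.10 to 9.68 (median 9.30) in early distal arrays to 9.34 to 10.71 (median 10.09) in late ones, with 11 of 12 late arrays above every early array. The change was 0.92 (SE 0.10, 1.90-fold, limma adjusted p = 3.21e-11). The 6 arrays of 24 and 28 h lay at 10.33 or above, apart from the 18 h arrays, which lay at 9.86 or below. Col5a3, a minor fibrillar collagen chain that joins collagen V fibrils, rose from a median of 10.40 (9.97 to 10.53) to 10.94 (10.33 to 11.42), by 0.74 (SE 0.08, 1.67-fold, adjusted p = 3.86e-10). Of its 12 late arrays 10 lay above every early one. Col6a6 rose from a median of 7.32 (7.01 to 7.90) to 8.08 (6.77 to 8.43), by 0.66 (SE 0.14, 1.58-fold, adjusted p = 0.000193), and it was already at 8.38 and 8.43 in the 2 distal 16 h arrays.

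Smaller distal rises were those of Col8a2, a network-forming collagen (0.48, SE 0.15), Lama4 (0.46, SE 0.15), Col4a2 (0.35, SE 0.11), Lama3 (0.21, SE 0.07) and Sparc (0.21, SE 0.06, limma adjusted p = 0.00507). Col4a1, the partner chain of Col4a2, was at 0.08 (SE 0.08) and was not called. Fn1 and Postn, which were higher late after the proximal lesion than after sham, were at -0.14 (SE 0.09, adjusted p = 0.272) and 0.32 (SE 0.14, adjusted p = 0.0905) over time in distal arrays. The wound protein Tnc was at 0.41 (SE 0.16, adjusted p = 0.0621).

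Among the falls, Col9a1 went from a median of 7.89 (7.49 to 9.26) to 7.40 (6.67 to 7.74), by -0.80 (SE 0.17, limma adjusted p = 0.000245). The highest early arrays were 3 h arrays at 8.94 and 9.26. Col15a1, a basement membrane zone collagen, went from a median of 10.46 (10.20 to 10.83) to 9.99 (9.27 to 10.32), by -0.47 (SE 0.09, adjusted p = 6.75e-05). Lum fell from a median of 11.92 (11.53 to 12.20) to 11.48 (10.45 to 11.62), by -0.44 (SE 0.09, adjusted p = 0.00022), with 9 of 12 late arrays below every early one. Dcn went from a median of 13.02 (12.84 to 13.16) to 12.60 (12.35 to 13.21), by -0.36 (SE 0.08, adjusted p = 0.00095), also with 9 of 12 late arrays below every early one and 1 above.

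The fibrillar chains Col11a1 (-0.29, SE 0.09), Col1a2 (-0.28, SE 0.11, limma adjusted p = 0.049) and Col3a1 (-0.28, SE 0.09) were also called lower, and Col1a1 was not (-0.24, SE 0.13, adjusted p = 0.196). The Col1a2 call was lost in 26 of 38 alternatives. Leaving out 1 hour ended some calls and brought others: without the 3 h arrays 8 members were called and without the 24 h arrays 9. Col16a1, Col5a3, Col6a6, Col9a1, Col15a1, Lum and Dcn were called under each of the 38 alternatives run. In the same comparison 6 of 8 pericyte and smooth muscle markers rose and 0 fell, with a median of 0.37, fibroblast markers had 2 of 12 higher, and macrophage markers 5 higher and 3 lower of 13. The median of 8 skeletal muscle markers was 0.80, with 0 called. Whether these bear on the matrix changes was not tested.

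**Figure D3:**
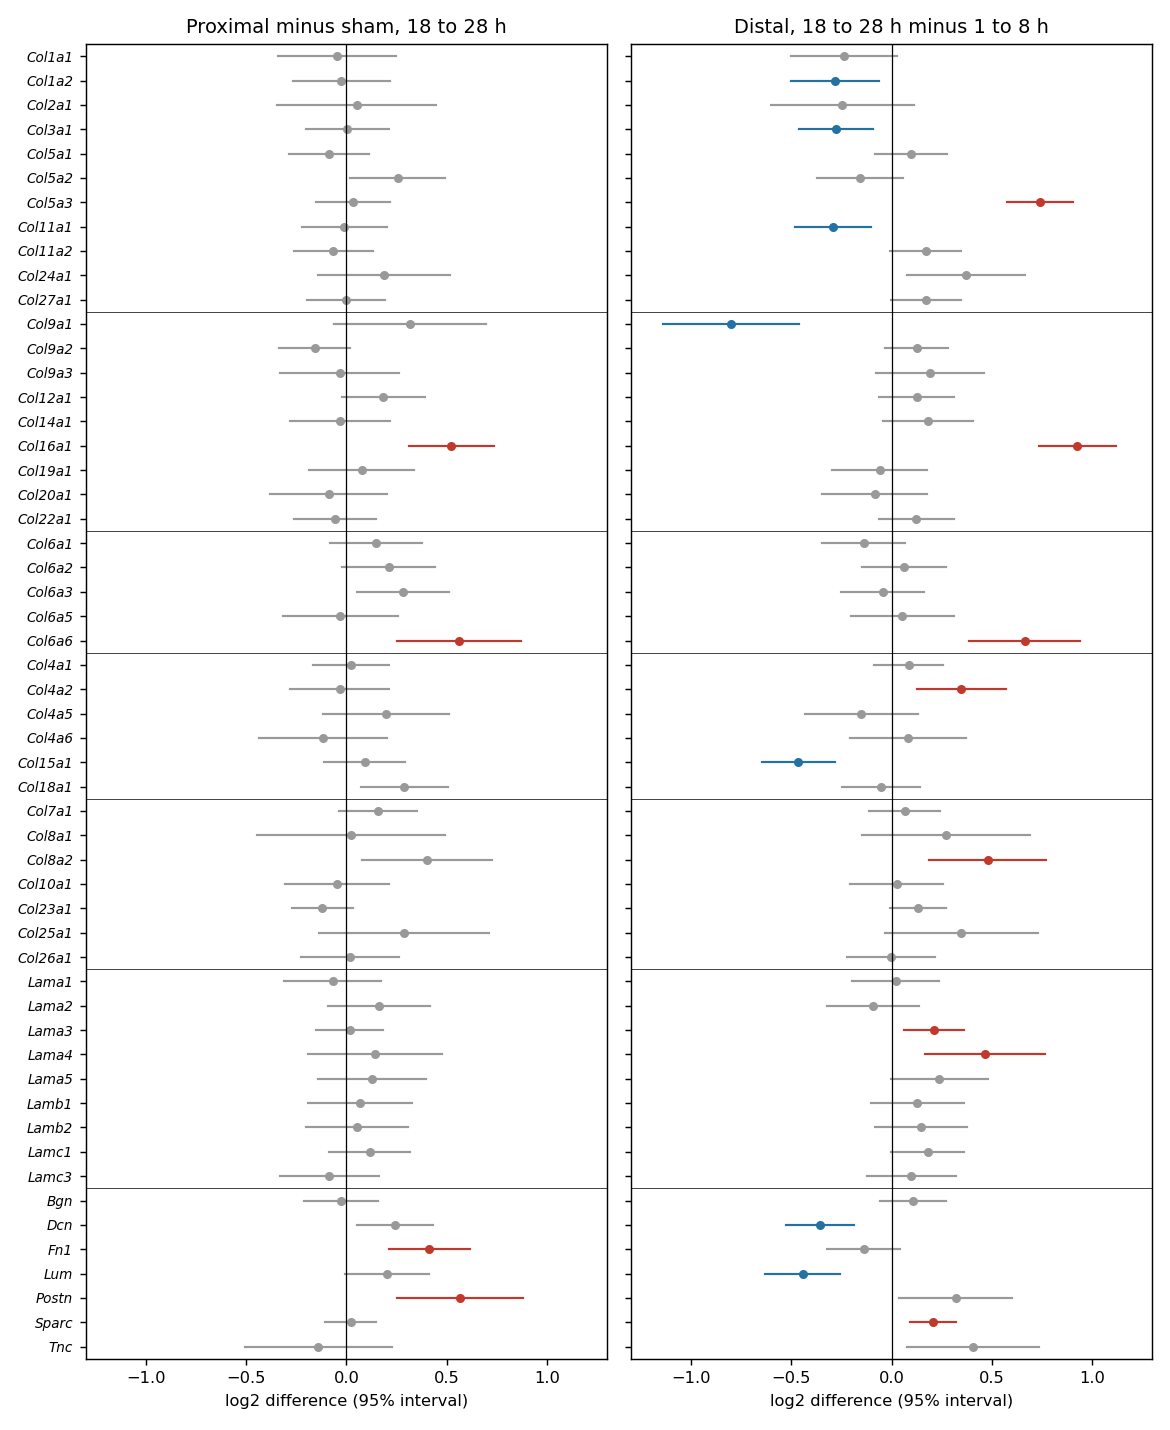
Log2 difference and 95% interval for each of the 54 members, grouped by class, for proximal minus sham at 18 to 28 h (left) and for late minus early distal arrays (right), red for called higher, blue for called lower and grey for not called. Col16a1 and Col6a6 were called higher in both panels, and the distal panel holds 7 members called lower against 0 in the proximal panel.

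Over the same windows in sham arrays 12 members were called higher and 5 lower, against 35.4% and 4.94% of all genes, and in proximal arrays 20 higher and 3 lower, against 26.3% and 7.33%. Early and late arrays lay largely in different technical sets here. With set as a random block the counts were 0 in sham and 4 in proximal arrays. Within set D, which holds the 1, 24 and 28 h arrays, 3 members were called in sham and 10 in proximal arrays. The shares of all genes in these fits were not counted. Sham and proximal arrays were not compared by these counts.

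Col1a1, a chain of collagen I, was lower late in both kinds of array and also within set D. In set D sham arrays it had a mean of 12.04 at 1 h (3 arrays) and 11.02 at 24 and 28 h (6 arrays), a change of -1.02, and in proximal arrays 12.07 and 11.02, a change of -1.04. Over the full windows the changes were -0.56 (SE 0.15, limma adjusted p = 0.00205) in sham and -0.63 (SE 0.15, adjusted p = 0.000641) in proximal arrays. Postn rose in proximal arrays by 1.05 over the full windows (SE 0.16, adjusted p = 4.46e-07) and by 0.80 within set D, and all 9 late arrays lay above all 9 early ones. In sham arrays Postn changed by 0.15 within set D. Over the full windows its sham mean went from 6.16 to 6.44, without a call. Col16a1 rose by 0.70 within set D in proximal arrays, and changed by 0.10 in sham arrays. Over the full windows Col16a1 was called higher in both. The change was 0.83 (SE 0.11, limma adjusted p = 1.5e-08) in proximal and 0.31 (SE 0.11, adjusted p = 0.0157) in sham arrays. Col8a2 rose by 1.01 in proximal (SE 0.16) and 0.77 in sham arrays (SE 0.16) over the full windows, and within set D changed by 0.53 and -0.0012.

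Some full-window changes were absent or turned around within set D. Col2a1, the cartilage fibril collagen, rose by 0.87 in sham arrays over the full windows and changed by -0.17 in set D. Tnc rose by 0.83 in sham and changed by 0.32 in set D, without a call there. The collagen IV chain Col4a1 went from 9.81 ± 0.43 to 10.36 ± 0.18 (SD, n = 9 each) in sham arrays over the full windows, while in set D it was at 10.31 at 1 h and 10.29 at 24 and 28 h. Its low early values were those of the 3 and 8 h arrays (9.35 to 9.84), which are all in set C. The only later sham arrays of set C were 1 of 12 h, at 9.53, and 1 of 18 h, at 10.29. Within set C, early and later hours can thus be set side by side by single arrays only.

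**Figure D4:**
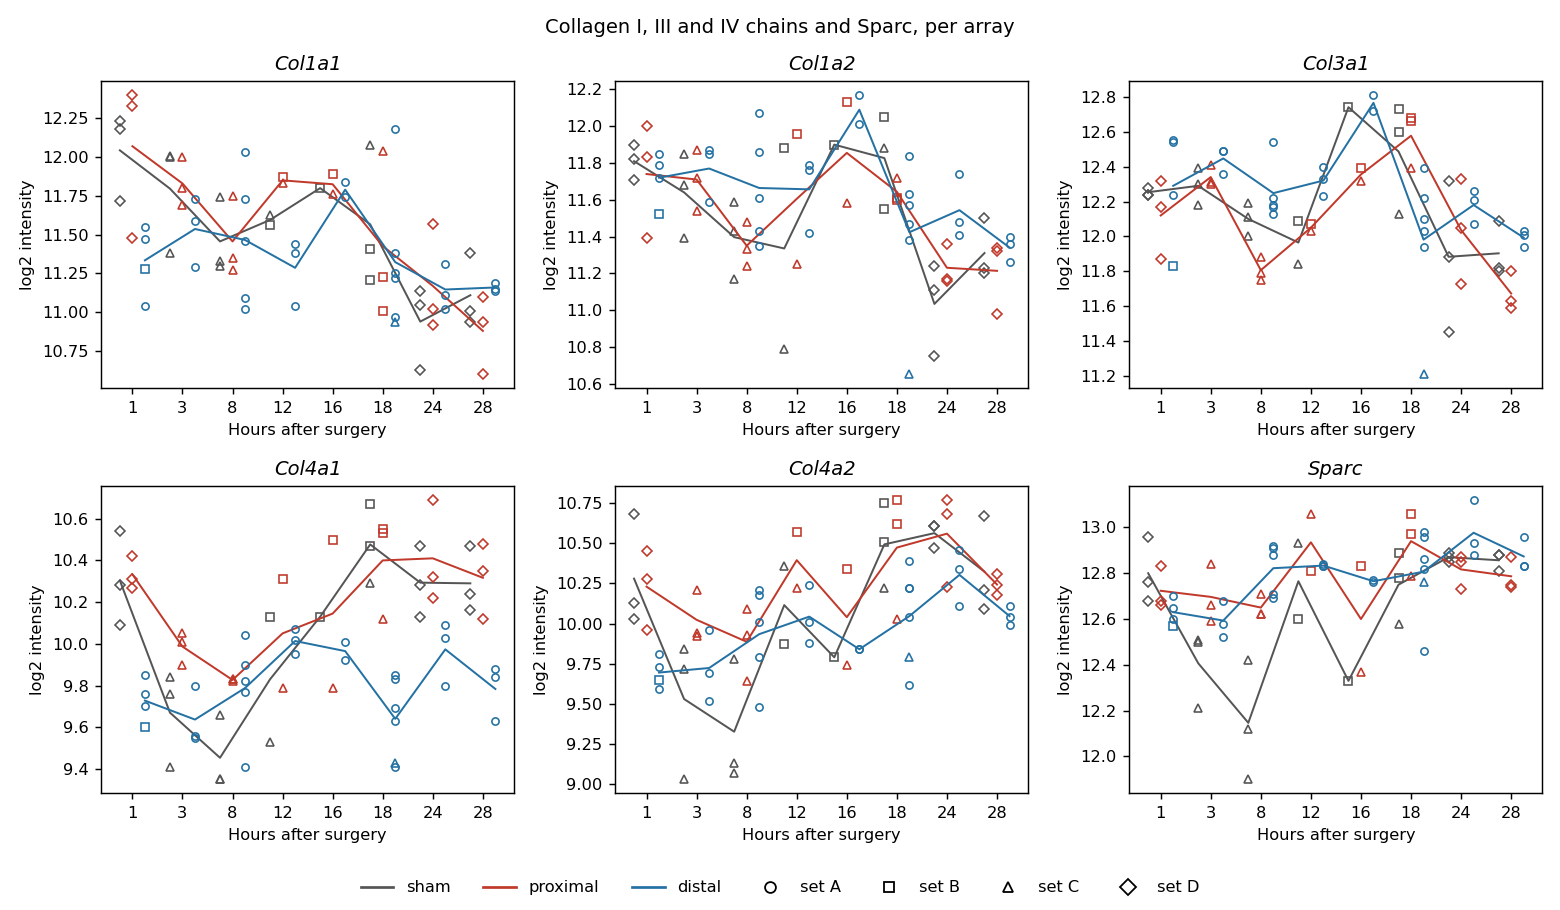
Log2 intensity of the collagen I chains Col1a1 and Col1a2, of Col3a1, of the collagen IV chains Col4a1 and Col4a2, and of Sparc in each array by hour, with points shifted sideways by lesion, marker shapes for technical sets and lines through the group means. Sham and proximal Col1a1 values overlapped at 24 and 28 h and lay below most values of 1 h, and the sham Col4a1, Col4a2 and Sparc means were lowest at 8 h, in set C.

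Between distal and sham arrays at 18 to 28 h, 11 members were called higher and 15 lower, against 32.3% and 29.5% of all genes. Lesion and technical set cannot be told apart in this comparison, and with set as a random block 0 members were called. The largest differences were Col6a6 (1.17, SE 0.15), Col24a1 (1.06, SE 0.16) and Lamb2 (0.63, SE 0.12) above sham, and Col2a1 (2.01-fold lower), Col26a1 (-0.64, SE 0.12) and Tnc (-0.62, SE 0.18) below it. The late proximal arrays were set against the same sham arrays, and for 3 of the genes called there the distal differences were 0.48 (Col16a1), 0.31 (Fn1) and 0.60 (Postn).

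Chains of 1 trimer (Col1a1 with Col1a2, Col4a1 with Col4a2) and 4 other pairs were compared across arrays within technical sets A, C and D (6 pairs in 3 sets, 18 relations, p from 100000 permutations, two-sided). Arrays of a set share hours and lesions, and no covariate was used. Hour-to-hour changes thus enter r, rho and their p-values. Col1a1 and Col1a2, the 2 chains of the collagen I trimer, had Pearson's r of 0.79 and Spearman's rho of 0.84 in set A (27 arrays, permutation p = 1e-05 for each, the smallest the permutations can give, adjusted p = 9e-05). In set D r was 0.95 and rho 0.91 (18 arrays, permutation p = 1e-05 for each, adjusted p = 9e-05), and in set C r was 0.77 and rho 0.78 (18 arrays, permutation p = 0.00018 and 0.00023, adjusted p = 0.00081 and 0.00093). Without the 2 arrays farthest from the Col1a1 median r was 0.86, 0.94 and 0.67 in sets A, D and C.

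Col4a1 and Col4a2, whose start sites were shown above to lie 76 bases apart, followed each other less closely. In set A r was 0.48 and rho 0.43 (permutation p = 0.0106 and 0.0243, adjusted p = 0.0174 and 0.0397), and 0.55 without the 2 farthest arrays. In set C r was 0.68 and rho 0.63 (permutation p = 0.00176 and 0.0057, adjusted p = 0.0032 and 0.0103), and 0.58 without 2 arrays. In set D r was 0.46 and rho 0.45 (permutation p = 0.0563 and 0.0622, adjusted p = 0.0779 and 0.0861) and fell to 0.18 without 2 arrays, so no relation was shown there. Col1a1 and Col4a1, which belong to different collagens, had r of 0.71 and rho of 0.67 in set C (permutation p = 0.00077 and 0.00329, adjusted p = 0.00173 and 0.00658, r without 2 arrays 0.76), as high as the collagen IV partners there. In sets A and D their r was 0.15 and 0.10 (permutation p = 0.454 and 0.694, adjusted p = 0.544 and 0.734), with rho of 0.12 and 0.25 (permutation p = 0.556 and 0.312, adjusted p = 0.626 and 0.375) and r of 0.16 and 0.19 without 2 arrays. Whether r differs between the pairs was not tested.

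Col1a1 and Col3a1, whose collagens share fibrils, had r of 0.64 and rho of 0.67 in set A (permutation p = 0.00026 for each, adjusted p = 0.000823 and 0.00093, r without 2 arrays 0.82). In set C r was 0.77 and rho 0.70 (permutation p = 0.00016 and 0.00159, adjusted p = 0.00081 and 0.00391, r without 2 arrays 0.58), and in set D r was 0.77 and rho 0.78 (permutation p = 0.00032 and 0.00031, adjusted p = 0.000823 and 0.00093, r without 2 arrays 0.75).

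The proteoglycans Dcn and Lum had r of 0.66 and rho of 0.58 in set A (permutation p = 0.00028 and 0.00174, adjusted p = 0.000823 and 0.00391, r without 2 arrays 0.60). They had r of 0.52 and rho of 0.48 in set C (permutation p = 0.029 and 0.0474, adjusted p = 0.0435 and 0.0711, r without 2 arrays 0.37) and r of 0.35 and rho of 0.30 in set D (permutation p = 0.158 and 0.225, adjusted p = 0.204 and 0.29, r without 2 arrays 0.51). Fn1 and Postn had r of 0.68 and rho of 0.83 in set C (permutation p = 0.00178 and 5e-05, adjusted p = 0.0032 and 3e-04, r without 2 arrays 0.72). In sets A and D their r was 0.03 and 0.16 (permutation p = 0.885 and 0.534, adjusted p = 0.885 and 0.601), with rho of -0.02 and 0.13 (permutation p = 0.906 and 0.596, adjusted p = 0.906 and 0.632) and r of -0.04 and -0.21 without 2 arrays.

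Other matrix genes were followed as lists in the late proximal comparison. Of 23 tested matrix proteases and their inhibitors 8 were higher and 0 lower, with a median of 0.17. They included Timp1, an inhibitor of matrix metalloproteinases (1.33, SE 0.14, limma adjusted p = 3.32e-11), Mmp16, a membrane-bound metalloproteinase (1.43, SE 0.15, adjusted p = 3.35e-11) and Adamts1, which cuts proteoglycans (1.21, SE 0.17, adjusted p = 2.76e-07). Of 26 basement membrane partners and other matrix proteins 5 were higher and 0 lower (median 0.05), among them Mgp, matrix Gla protein (0.58), Nid2, which links laminin to collagen IV (0.44), and Spp1, osteopontin (0.37). Of 20 integrins and other matrix receptors 5 were higher and 1 lower (median 0.03), among them the hyaluronan receptor gene Cd44 (0.73), Itgb1, the common beta subunit of many matrix-binding integrins (0.26), and Sdc4 (0.41).

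Genes that make and cross-link collagen had 1 of 18 higher, Plod3 (0.23), and 1 lower, Plod1 (-0.28), both lysyl hydroxylases, with a median of 0.03. Genes of TGF-beta signalling, a known driver of collagen genes, had 1 of 15 higher, Smad4 (0.38), and 0 lower, with a median of 0.08. Over time in distal arrays the collagen synthesis list had 6 higher and 2 lower, proteases and inhibitors 9 and 2, receptors 8 and 1, basement membrane partners 10 and 2, and TGF-beta signalling 0 and 2. The background shares of 5.35% higher and 4.36% lower for the proximal comparison, and of 15.4% and 9.87% for the distal one, stand beside these counts too.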

How the data were processed

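Gene expression in rat dorsal root ganglia was measured on 72 Affymetrix arrays after sham surgery or a proximal or distal crush. The authors deposited 1 log2 value for each probe set and array, computed by RMA per the submitters' processing notes, with no version given in the sources used here. RMA corrects background, equalizes quantiles and summarizes probes, yet the deposited arrays differ in spread between the technical sets, so they do not share 1 distribution. All 72 columns were used and 0 left out, and lesion, hour and array letter came from the labels.

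Probe sets with 1 annotated symbol were named (20826 of 31042 after 57 controls, 436 had several symbols and 9780 none). Each gene was represented by its brightest probe set over all arrays, and those below the 25th percentile (5.46) were left out. Of the 58 matrix genes 40 had 1 probe set, 14 had 2 and 4 had 3, and all 58 matched RefSeq by Entrez identifier with 0 symbols changed.

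Linear models with 24 group means (each lesion and hour) were run on the 72 arrays with limma 3.58.1 in R 4.3.3 (48 residual degrees of freedom, eBayes with trend), with files read by the data.table package, version 1.17.8. Windows averaged their hours with equal weight, so a difference can depart slightly from that of the printed means. SE is the moderated standard error, tests were two-sided, and p was adjusted by Benjamini-Hochberg over 12276 genes within a comparison. The procedure was tested on simulated data. A group with 1 array was assumed to vary like the others. Technical sets came from Ward clustering of arrays on probe sets below the filter.

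The members, the lists, the windows and the rule for named genes were chosen with earlier results of these data known, so none is independent evidence. The rule named the main matrix genes whatever their values, every member called in the late proximal comparison or in its change over time, the 3 largest called rises and falls of other comparisons, and the 3 genes of each list with the smallest p. Others were named after their values were seen. Alternatives were the filter (none, or the 50th percentile, 7.01), another quantile normalization, only the arrays compared, technical set as a block, the array letter as a replicate block, array weights, all sham arrays pooled, leaving out arrays with an o after their letter, each hour or each array, and other probe sets. Fits within set A and within set D were added after the data were seen.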

Additional observations from a re-analysis of the deposited data

Results flagged for a closer look

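The 18 h distal group held 1 array, with the letters do, that stood apart from the other 5 in 9 of the always-named or called matrix genes, by a gap from its nearest neighbour too wide for the spread of the group. It is the only distal array of technical set C. It was lowest in Lama2 (9.23, next 10.31), Lamb1 (9.71, next 10.72), Lama4 (8.48, next 9.62), Lum (10.45, next 11.26), Col5a2 (9.53, next 10.40), Lamb2 (8.54, next 9.56), Col16a1 (9.34, next 9.68), Fn1 (9.76, next 10.30) and Lamc1 (9.90, next 10.48). The same array was the highest of its hour in other members, such as Col20a1 (6.56, next 5.42), Lamc3 (8.37, next 7.37) and Col5a1 (9.53, next 8.79). It was thus not low throughout, and set C had the narrowest spread of the sets. Without that array 18 members were called in the distal time comparison, against 15 with it, and the share of all genes without it was not counted. In the same hour Col1a1 was highest, at 12.18, in array eo (next 11.38), and among the 8 h distal arrays Col3a1 was highest, at 12.54, in array c (next 12.22). In all 11 of 66 groups and genes tested met this limit. Chance alone gives about 1 in 20 for separate tests. These were not separate, since 9 of the 11 came from array do, so the count cannot be set against that rate.

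The proximal difference changed between 1 to 8 h and 18 to 28 h, by the interaction term of the limma fit, in Col6a6 (0.84), Postn (0.77), Col16a1 (0.51) and Fn1 (0.43). As given above, these 4 calls were lost without the 8 h arrays.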

How the results depend on the processing

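Counts of members called are given against the main count of each comparison. Under the alternatives, here and above, only members were counted, and the share of all genes called was not. A change of count may thus not be particular to the members. For proximal minus sham at 18 to 28 h (4) the count was 9 with technical set as a fixed block, 15 with array weights, 7 with all sham arrays pooled, 2 without 28 h and 3 to 9 without single arrays. For 1 to 8 h (0) it was 1 after another quantile normalization, 1 with only the arrays compared, 2 with the set block, 7 with weights, 1 without 1 h and 0 to 1 without single arrays, and for 12 and 16 h (0) it was 1 after quantile normalization and 0 to 1. For the change of the proximal difference (4) it was 7, 8 and 15 after quantile normalization, set block and weights, 0 without 8 h, 1 without 28 h and 2 to 6 without single arrays. For distal late minus early (15) it was 23 with the set block, 31 with weights, 8 without 3 h, 9 without 24 h and 13 to 18. For proximal late minus early (23) it was 4 with a random set block, 41 with weights, 8 without 8 h, 10 in set D and 17 to 28. For sham late minus early (17) it was 0 with a random set block, 31 with weights, 10 without 3 h, 9 without 8 h, 3 in set D and 13 to 20. For distal minus sham (26) it was 0 with a random set block, 40 with weights and 24 to 33. For the single hours together (4) it was 8, 11, 15 and 38 after quantile normalization, with only the arrays compared, set block and weights, and 2 to 11. The cause was not tested.

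Lum in distal minus sham turned to -0.18 with a random set block. In set D the proximal time changes of Col14a1 (-0.10) and Col2a1 (-0.26) turned, as did the sham changes of Col10a1 (-8.67e-05), Col18a1 (-0.42), Col2a1 (-0.17), Col4a1 (-0.012) and Col8a2 (-0.0012). Of 93 member calls 10 were kept under every alternative run and 8 reversed under at least 1.

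With the array letter within hour as a replicate block the counts were 7 at 18 to 28 h, 2 at 1 to 8 h, 6 at 12 and 16 h, 8 for the change of the proximal difference, 21 over single hours and 32 in distal minus sham. Same-letter arrays correlated by 0.48 to 0.70 at 1 h and 0.62 to 0.80 at 18 h, but by -0.17 to -0.29 at 3 h and -0.05 to -0.30 at 8 h, so letters do not pair arrays throughout. The comparisons over time could not be fitted with it. Precision is limited by 1 to 6 arrays a group, and genes near the filter level have compressed differences.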
